A study of Mus musculus with 6 samples.

Results

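The subunits and partners of the phagocyte NADPH oxidase were followed in RNA from microglia-enriched brain cells of *Cnr1*+/+ and *Cnr1*-/- mice. The genes were chosen by symbol as *Cybb*, *Cyba*, *Ncf1*, *Ncf4*, *Rac1*, *Rac2* and *Hvcn1*, and all 7 were among the 19225 genes listed in the expression table. *Cnr1* encodes the cannabinoid receptor CB1, and the series asks how its loss alters gene expression in microglia, the resident macrophages of the brain. Each genotype had 3 male mice and 1 library per mouse. The *Cnr1*+/+ libraries are labelled wt/wt on C57BL6/J and the *Cnr1*-/- libraries d/d with the allele Cnr1 tm1Zim, a constitutive knockout in every cell type of the body, in which a neomycin cassette interrupts the coding region. The methods describe littermates of a line backcrossed to C57BL/6J. No group received stress or any agent. The labels give an age of 3 months for all mice, whereas the methods give 8 to 10 weeks. Cells were prepared from PBS-perfused brains without cerebellum by mechanical dissociation, removal of myelin on Percoll and capture with magnetic CD11b beads, which bind myeloid cells in general and not microglia alone.

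The phagocyte NADPH oxidase transfers electrons from cytosolic NADPH across a membrane to oxygen and so makes superoxide, the first of the reactive oxygen species of the respiratory burst. At rest its parts are kept separate. The catalytic core, gp91phox (NOX2) bound to p22phox, sits in the membrane, while p47phox and p40phox belong to a complex in the cytosol. Phosphorylation of p47phox opens its binding site for p22phox, the cytosolic complex moves to the membrane, and Rac bound to GTP completes the active enzyme. The voltage-gated proton channel Hv1 lets protons follow the electrons and so balances the charge. The oxidase is best known from neutrophils and macrophages, and microglia are the cells of the brain in which it is most often studied.

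Levels are given as cpm, the reads of transcript 3′ ends per gene scaled by the authors to a common library total. Effective library sizes lay between 7708768 and 10723779 reads, so that a listed value of 0 allowed up to 0.280 to 0.389 cpm, which covers counting error only. *Cnr1* itself was at 0 cpm in all 3 *Cnr1*+/+ libraries and at 1.41, 1.21 and 1.79 cpm in the *Cnr1*-/- libraries, from 13, 13 and 15 reads. The target gene thus went against the labels. The value columns carry only the numbers 1 to 6 and were matched to the labels through the sample number in each description, so an error in that numbering and one in the labels cannot be told apart. A 3′ end outside the altered part of the gene cannot check a deletion, and whether these reads lay outside it was not determined. Directions are therefore given for the libraries labelled *Cnr1*-/-. All 10 microglial markers were present, with summed levels of 14680 to 17058 cpm, in which the genotypes overlapped. One library stood apart. In *Cnr1*-/- replicate 2 the 11 listed neutrophil markers added up to 4110 cpm, where the other 5 libraries held between 269 and 530.5 cpm. The 7 erythrocyte markers reached 2342 cpm there and 136 to 237 cpm elsewhere, and the 6 monocyte markers 112 cpm and 28.2 to 34.6 cpm elsewhere, of which *Chil3* alone made 68.4 cpm, while *Ccr2* was at 17.3 cpm and within its range in the other libraries. No listed neutrophil or erythrocyte marker was at 0 in every library. Border-associated macrophage markers lay between 98.7 and 150.2 cpm. Of the lymphocyte markers 2 of 8 were listed, with a joint level of 102 to 136 cpm. Nearly all of it was *Ighm*, while *Cd79a* reached at most 1.68 cpm. In such bulk samples, fewer cells of a type and less RNA per cell cannot be told apart.

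Across the oxidase genes, *Ncf1* was the only member that passed a nominal threshold. It was higher in all 3 libraries labelled *Cnr1*-/- than in any *Cnr1*+/+ library, with means of 311 against 241 cpm. *Cybb*, *Rac2* and *Ncf4* reached their highest level in the single library rich in neutrophil and erythrocyte transcripts, and their groups overlapped. *Cyba*, *Rac1* and *Hvcn1* differed by less than the spread between libraries. The limma comparison was made on the log2 (cpm + 0.1) scale for 6659 genes that averaged 10 cpm or more, with Benjamini-Hochberg adjustment over all of them. No member passed an adjusted p of 0.1.

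Promoter sequences are shown for *Cybb* and *Ncf1*, the members on which the results below turn. They span 250 bases before to 50 bases after the RefSeq start, are written 5′ to 3′ on the strand of the gene and come from RefSeq on GRCm38.p6. Capitals mark matches on either strand to the core motif bound by PU.1, GAGGAA, and to an interferon response element bound by IRF proteins, GAAANNGAAA. The *Cybb* window is chrX:9469275-9469574 on the minus strand and the *Ncf1* window is chr5:134229576-134229875 on the minus strand. The RefSeq start of *Cybb* lies inside the longer interval that the deposited table gives for the gene.
Cybb: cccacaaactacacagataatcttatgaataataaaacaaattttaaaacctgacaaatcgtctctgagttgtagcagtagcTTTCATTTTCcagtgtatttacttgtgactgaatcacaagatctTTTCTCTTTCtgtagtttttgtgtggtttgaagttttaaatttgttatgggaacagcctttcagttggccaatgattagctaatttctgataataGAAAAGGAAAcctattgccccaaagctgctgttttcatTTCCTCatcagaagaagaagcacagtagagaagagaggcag
Ncf1: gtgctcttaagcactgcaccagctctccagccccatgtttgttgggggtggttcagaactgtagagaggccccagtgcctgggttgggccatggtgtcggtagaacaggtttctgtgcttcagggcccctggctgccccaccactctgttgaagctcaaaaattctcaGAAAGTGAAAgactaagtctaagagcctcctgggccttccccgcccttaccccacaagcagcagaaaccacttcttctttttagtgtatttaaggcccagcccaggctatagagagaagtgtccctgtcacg
The *Cybb* window held 3 matches to the interferon response element, which begin at −168, −124 and −29 from the start, and 1 match to the PU.1 core at 9 bases past the start. The *Ncf1* window held 1 interferon response element at −82 and no PU.1 core. The third window found, that of *Cyba* at chr8:122432891-122433190 on the minus strand, held neither. The letters of the interferon response element occur in 3.44% of all 32851 RefSeq windows of the same length, and those of the PU.1 core in 28.3%. The *Cybb* window had a GC content of 35.3%, compared with 54% for *Ncf1*, 60.7% for *Cyba* and a median of 52.7% over all windows. These matches describe letters and are not evidence of binding. *Ncf4*, *Rac1*, *Rac2* and *Hvcn1* were not among the windows matched.

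The membrane core was examined first. *Cybb* (ENSMUSG00000015340, chrX:9435252-9487771, mm10, minus strand) encodes gp91phox, the catalytic subunit that carries the haem groups and the flavin. Its level was 14.8, 24.1 and 21.0 cpm in *Cnr1*+/+ replicates 1 to 3 and 18.1, 45.5 and 20.6 cpm in *Cnr1*-/- replicates 1 to 3. Only *Cnr1*-/- replicate 2 lay above the *Cnr1*+/+ range, and the other 2 *Cnr1*-/- libraries fell within it. The means were 19.99 ± 4.76 and 28.1 ± 15.2 cpm (SD, n = 3 per genotype), a log2 fold change of 0.39 (SE 0.26, 95% interval −0.14 to 0.92; limma, adjusted p = 0.887; two-sided exact permutation p = 0.6). The 488 reads of replicate 2 give an exact Poisson 95% interval of 41.6 to 49.7 cpm, and the 242 reads of *Cnr1*+/+ replicate 2 give 21.2 to 27.4 cpm. These intervals cover counting error only and not the spread between mice.

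*Cybb* in *Cnr1*-/- replicate 2 was 2.31 times its mean in the other 5 libraries. Of the 6659 genes tested, 19 (0.285%) had a ratio at least this high. In the same library *S100a8* and *S100a9*, the genes of calcium-binding proteins that dominate the neutrophil cytosol, were at 1398 and 1630 cpm, and 10 of the 11 listed neutrophil markers and 7 of 7 erythrocyte markers had their highest value. Their part in the *Cybb* value was not tested. Without this library the mean of the remaining *Cnr1*-/- libraries was 19.4 cpm and the log2 fold change turned to −0.020 (95% interval −0.52 to 0.48; limma, adjusted p = 0.999). Without *Cnr1*-/- replicate 1, by contrast, *Cybb* reached a log2 fold change of 0.64 and passed the nominal threshold (limma, adjusted p = 0.856).

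*Cyba* (ENSMUSG00000006519, chr8:122424776-122432930, minus strand) encodes p22phox, the membrane partner that stabilises gp91phox and docks p47phox. It was at 111, 107 and 153 cpm in the *Cnr1*+/+ libraries and at 117, 143 and 132 cpm in the *Cnr1*-/- libraries. Both the highest and the lowest value belonged to *Cnr1*+/+ libraries, so the *Cnr1*-/- values lay inside the *Cnr1*+/+ range. The means were 124 ± 25.4 and 131 ± 12.99 cpm (SD, n = 3 per genotype), a log2 fold change of 0.09 (SE 0.14, 95% interval −0.20 to 0.38; limma, adjusted p = 0.954). The sign of this difference was negative under quantile normalisation (−0.016), when mitochondrial transcripts were left out of the scaling (−0.0066) and without *Cnr1*+/+ replicate 2 (−0.0024). Within a library, *Cyba* exceeded *Cybb* 7.47-, 4.42- and 7.24-fold in the *Cnr1*+/+ libraries and 6.44-, 3.13- and 6.38-fold in the *Cnr1*-/- libraries. The smallest ratio was that of *Cnr1*-/- replicate 2, and the groups overlapped (two-sided exact permutation p = 0.5, 0.9 after adjustment over the 3 ratios compared).

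**Figure D1:**
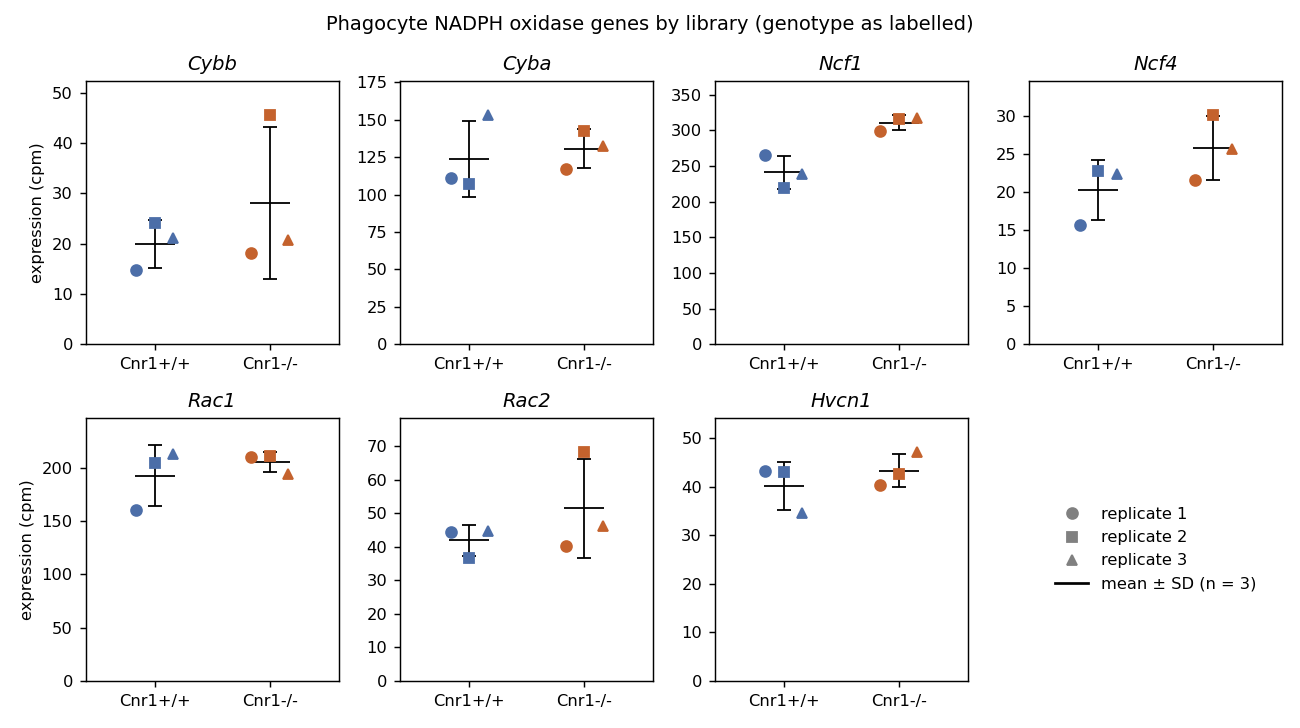
Level of each of the 7 oxidase genes (cpm, linear axes from 0) in the 3 *Cnr1*+/+ libraries (blue) and the 3 *Cnr1*-/- libraries (orange), with the marker shape giving the replicate number and black lines the mean ± SD. The groups are separate for *Ncf1* alone, and *Cybb* and *Rac2* have a single high value, 45.5 and 68.3 cpm, in *Cnr1*-/- replicate 2.

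Among the cytosolic subunits, *Ncf1* (ENSMUSG00000015950, chr5:134220053-134229625, minus strand) encodes p47phox, the organiser that brings the complex to p22phox. It stood at 266, 219 and 239 cpm in the *Cnr1*+/+ libraries and at 299, 316 and 318 cpm in the *Cnr1*-/- libraries. All 3 *Cnr1*-/- values lay above all 3 *Cnr1*+/+ values, with means of 311 ± 10.2 cpm in *Cnr1*-/- and 241 ± 23.4 cpm in *Cnr1*+/+ (SD, n = 3 per genotype). The log2 fold change was 0.37 (SE 0.12, 95% interval 0.13 to 0.61), that is a 1.29-fold higher level. Its nominal limma p of 0.00402 ranked 44 among 6659 genes, with an adjusted p of 0.599, so *Ncf1* did not pass correction over the table. The two-sided exact permutation p was 0.1, the smallest value that the 10 splits of 3 against 3 libraries allow.

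The result for *Ncf1* did not rest on the library rich in neutrophil transcripts. Without *Cnr1*-/- replicate 2 the log2 fold change was 0.36 and still passed the nominal threshold (limma, adjusted p = 0.999), and replicates 1 and 3 had a mean of 309 cpm. The nominal p stayed below 0.05 in 14 of 14 alternatives, from 0.00113 to 0.0364, with log2 fold changes of 0.27 to 0.44 and limma adjusted p values of 0.292 to 0.999. The median log2 fold change of all genes tested was 0.08, and relative to it *Ncf1* was higher by 0.29. When the libraries were centred on their medians, quantile normalised or rescaled with mitochondrial transcripts left out, which brought that median to 0.01, −0.0014 and −0.02, the highest *Cnr1*+/+ value of *Ncf1* was no longer below the lowest *Cnr1*-/- value. *Gtf2ird2*, on the opposite strand, overlaps *Ncf1* and had at most 24.6 cpm.

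*Ncf4* (ENSMUSG00000071715, chr15:78244801-78262580, plus strand) encodes p40phox, which binds a phosphoinositide of phagosome membranes and prolongs oxidase activity there. It was at 15.7, 22.7 and 22.4 cpm in the *Cnr1*+/+ libraries and at 21.7, 30.1 and 25.8 cpm in the *Cnr1*-/- libraries. *Cnr1*-/- replicates 2 and 3 lay above the *Cnr1*+/+ range and replicate 1 within it. With means of 20.3 ± 3.97 and 25.8 ± 4.23 cpm (SD, n = 3 per genotype), the log2 fold change was 0.36 (SE 0.21, 95% interval −0.07 to 0.78; limma, adjusted p = 0.839; two-sided exact permutation p = 0.3). The estimate is close to that of *Ncf1*, and its interval includes 0. Without *Cnr1*-/- replicate 2 the log2 fold change was 0.24, and without *Cnr1*+/+ replicate 1 it was 0.18. The ratio of *Ncf4* to *Ncf1* within a library was 0.0594, 0.104 and 0.0941 in *Cnr1*+/+ and 0.0727, 0.0957 and 0.0813 in *Cnr1*-/-, and its groups overlapped (two-sided exact permutation p = 1, also 1 after adjustment over the 3 ratios).

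Of the small GTPases, *Rac1* (ENSMUSG00000001847, chr5:143503634-143528036, minus strand) encodes the form found in most cell types, which also drives actin assembly at the leading edge. It was at 159.9, 204 and 213 cpm in the *Cnr1*+/+ libraries and at 210.3, 211 and 194 cpm in the *Cnr1*-/- libraries. The *Cnr1*-/- values lay inside the *Cnr1*+/+ range, whose lowest value came from *Cnr1*+/+ replicate 1. The log2 fold change was 0.10 (SE 0.13, 95% interval −0.16 to 0.36; limma, adjusted p = 0.946), and its sign turned to −0.026 without *Cnr1*+/+ replicate 1. *Daglb* overlaps *Rac1* on the opposite strand and reached 95.7 cpm. Whether the counting used strand is not given in the sources used here, so overlapping genes on opposite strands may share reads.

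*Rac2* (ENSMUSG00000033220, chr15:78559167-78572783, minus strand) encodes the form found mainly in cells of the haematopoietic lineage and the main Rac of the neutrophil oxidase. It was at 44.5, 36.6 and 44.8 cpm in the *Cnr1*+/+ libraries and at 40.2, 68.3 and 46.1 cpm in the *Cnr1*-/- libraries. *Cnr1*-/- replicate 2 stood 1.48-fold above the next highest library, *Cnr1*-/- replicate 1 was within the *Cnr1*+/+ range and replicate 3 just above it. The means of 42.0 ± 4.64 and 51.5 ± 14.8 cpm (SD, n = 3 per genotype) gave a log2 fold change of 0.26 (SE 0.18, 95% interval −0.10 to 0.63; limma, adjusted p = 0.887; two-sided exact permutation p = 0.4). Without *Cnr1*-/- replicate 2, the library with 4110 cpm of neutrophil markers, it was 0.04 (95% interval −0.34 to 0.42), and without *Cnr1*-/- replicate 1 it was 0.42 and passed the nominal threshold (limma, adjusted p = 0.856). The part of the neutrophil and erythrocyte transcripts in these values was not tested. The ratio of *Rac2* to *Rac1* was 0.279, 0.180 and 0.211 in the *Cnr1*+/+ libraries and 0.191, 0.324 and 0.238 in the *Cnr1*-/- libraries (two-sided exact permutation p = 0.6, 0.9 after adjustment over the 3 ratios). The groups overlapped, and the highest ratio was again that of *Cnr1*-/- replicate 2.

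*Hvcn1* (ENSMUSG00000064267, chr5:122206804-122242297, plus strand) encodes Hv1, the proton channel. It was at 43.2, 42.9 and 34.5 cpm in the *Cnr1*+/+ libraries and at 40.3, 42.5 and 47.1 cpm in the *Cnr1*-/- libraries. The lowest value came from *Cnr1*+/+ replicate 3 and the highest from *Cnr1*-/- replicate 3, and the groups overlapped. The log2 fold change was 0.11 (SE 0.16, 95% interval −0.22 to 0.44; limma, adjusted p = 0.954; two-sided exact permutation p = 0.6). Without *Cnr1*+/+ replicate 3 it was 0.0053. Unlike *Cybb* and *Rac2*, *Hvcn1* in *Cnr1*-/- replicate 2 was near its mean elsewhere, at 1.02 times the mean of the other 5 libraries.

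**Figure D2:**
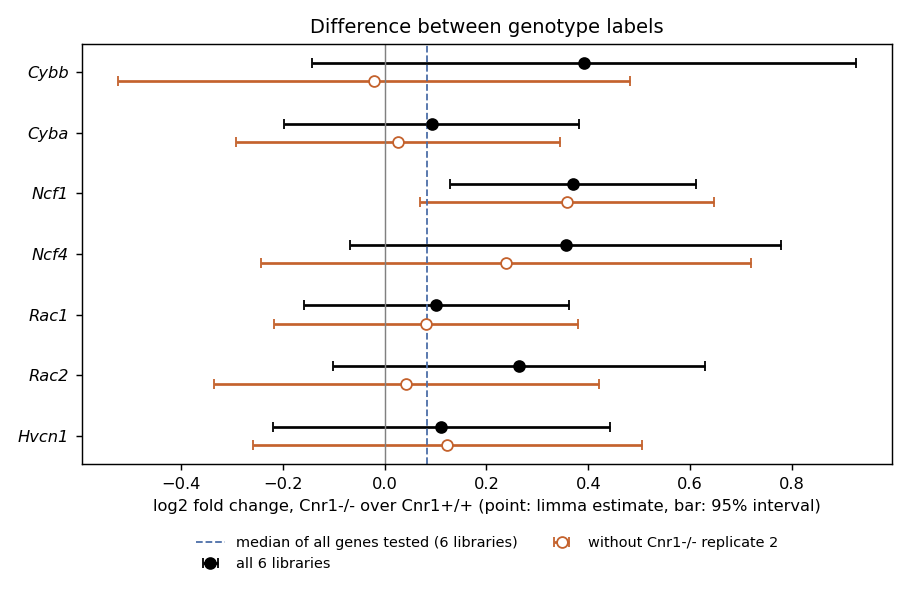
Log2 fold change of each oxidase gene, *Cnr1*-/- over *Cnr1*+/+ (limma estimate with its 95% interval), from all 6 libraries (black) and without *Cnr1*-/- replicate 2 (open orange points); the dashed line is the median of all genes tested, 0.08. Only the intervals of *Ncf1* lie above 0 in both fits, and the estimates of *Cybb* and *Rac2* move from 0.39 and 0.26 to −0.020 and 0.043.

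As a set, 7 of 7 members had a positive log2 fold change, where 68.4% of all genes tested did, and their median was 0.26 compared with 0.08 over all genes. A nominal limma p under 0.05 was reached by 1 of 7 members, and by 6.02% of all genes tested in either direction 5.09% being higher in *Cnr1*-/- and 0.931% lower. A single call among 7 genes is not read as a result about the set. Separate groups were found for 1 of 7 members and for 11% of all genes, with the *Cnr1*-/- libraries higher for 8.85% and lower for 2.13%. The stricter call, a fold change over 1.5 together with a limma adjusted p under 0.1, was met by 0.0901% of all genes and by 0 members. Without the fold limit, 0 members had a limma adjusted p under 0.1 and 1, *Ncf1*, an unadjusted p under 0.05. Under the other scalings 7 members stayed positive after centring (median 0.19), 6 after quantile normalisation (median 0.17) and 6 when libraries were rescaled to equal totals with mitochondrial transcripts left out (median 0.16), *Cyba* being the member that turned. Under these scalings the share of nominal calls over the table that were higher fell from 84.5% to 52.5%, 45.3% and 40.1%. Without *Cnr1*-/- replicate 2 the members' median was 0.08 and that of all genes 0.04.

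Added up within a library, the 7 members made 655, 657 and 728 cpm in the *Cnr1*+/+ libraries and 747, 856 and 784 cpm in the *Cnr1*-/- libraries. The sums did not overlap, with means of 680 ± 41.5 and 795 ± 55.5 cpm (SD, n = 3 per genotype; no test was made of a sum over chosen genes). The log2 ratio of the mean sums was 0.23, and 0.13 when mitochondrial transcripts were left out of the scaling. All listed genes together held 50.1%, 54.1% and 54.3% of the scaled total in the *Cnr1*+/+ libraries and 53.5%, 59.1% and 58.1% in the *Cnr1*-/- libraries. *Ncf1* supplied the largest part of the sum in every library. *Cybb*, *Ncf4* and *Rac2* had their highest value in *Cnr1*-/- replicate 2, the library in which 31.7% of all genes tested were highest, whereas *Cyba* and *Rac1* were highest in *Cnr1*+/+ replicate 3, and *Ncf1* and *Hvcn1* in *Cnr1*-/- replicate 3. The lowest value of each member came from a *Cnr1*+/+ library, for 3 members replicate 1, for 3 members replicate 2 and for 1 member replicate 3. These libraries held the lowest value of 38.1%, 19.5% and 10.9% of all genes tested.

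**Figure D3:**
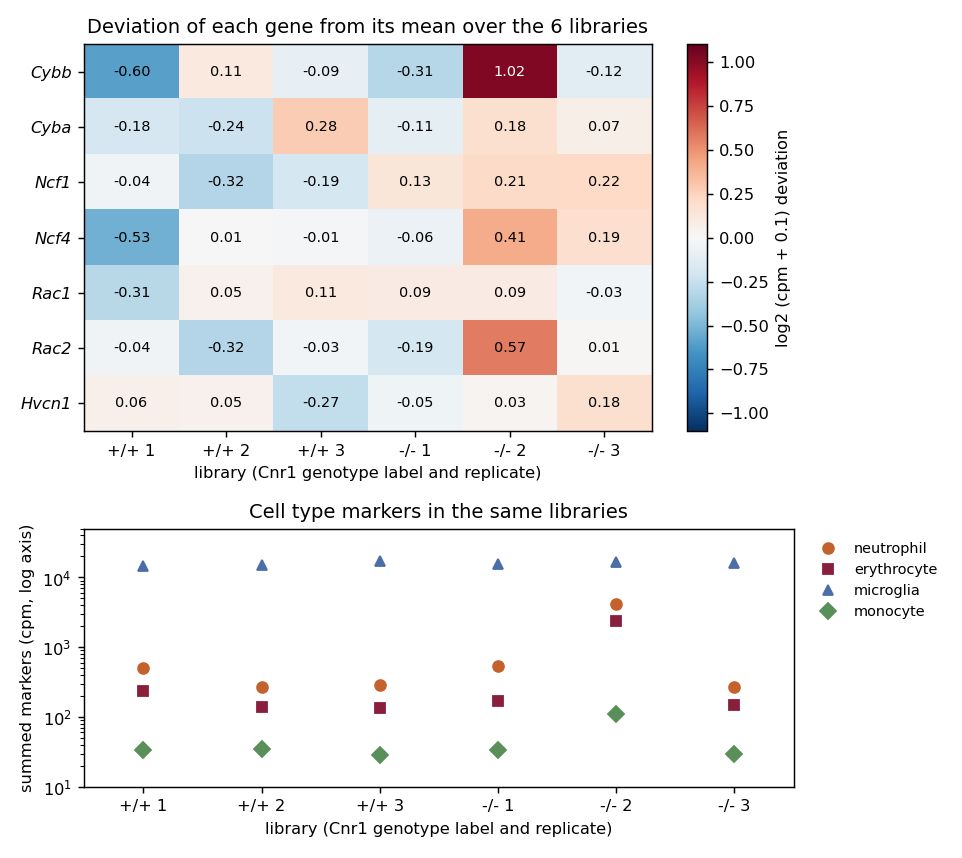
Upper panel, deviation of each oxidase gene from its own mean over the 6 libraries (log2 (cpm + 0.1), columns are libraries by genotype label and replicate); lower panel, summed cpm of neutrophil, erythrocyte, microglial and monocyte markers in the same libraries on a log axis. *Cybb* (1.02), *Rac2* (0.57) and *Ncf4* (0.41) have the largest positive deviations, all in *Cnr1*-/- replicate 2, where neutrophil markers reach 4110 cpm, while *Ncf1* is positive in all 3 *Cnr1*-/- libraries.

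The libraries count about 1 fragment per transcript end, so cpm can be set side by side between genes without division by length, apart from differences in how well each 3′ end is captured and aligned. On this scale *Ncf1* had the highest mean level over the 6 libraries (276 cpm), followed by *Rac1* (199 cpm), *Cyba* (127 cpm) and *Rac2* (46.7 cpm). These steps held in 6 of 6 libraries with no overlap of ranges. *Rac2*, *Hvcn1* (41.7 cpm), *Cybb* (24.0 cpm) and *Ncf4* (23.1 cpm) overlapped with their neighbours in this order. *Rac2* was above *Hvcn1* in 3 of 6 libraries, *Hvcn1* above *Cybb* in 5 of 6 and *Cybb* above *Ncf4* in 2 of 6. The organiser was among the most abundant transcripts tested, at percentile 97.4, and the catalytic subunit near the middle, at percentile 46.3.

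Related genes that build, load or switch on the oxidase were compared in the same fit. Of 47 such genes 39 were listed and 31 tested, and 3 were nominally higher in the libraries labelled *Cnr1*-/- and 0 lower, a share of 9.68% beside 5.09% of all genes called in that direction. None passed an adjusted p of 0.1. A positive estimate was found for 28 of 31, where 68.4% of all genes tested had one. The median over the 31 was 0.12, compared with 0.08 over all genes. The other catalytic subunits, *Nox1*, *Nox3*, *Nox4*, *Duox1* and *Duox2*, were not analysed here. *Cybc1*, the chaperone needed for gp91phox and p22phox to mature, had a log2 fold change of 0.06 and was not called.

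Both GDP-dissociation inhibitors on the list, which hold Rac in the cytosol until it is activated, were among the 3 genes called. *Arhgdia* stood at 43.6, 47.3 and 57.3 cpm in the *Cnr1*+/+ libraries and at 58.5, 69.0 and 71.6 cpm in the *Cnr1*-/- libraries. *Arhgdib*, the form found mainly in cells of the haematopoietic lineage, stood at 43.7, 49.5 and 56.5 cpm and at 58.9, 77.8 and 61.7 cpm. For both genes all 3 *Cnr1*-/- libraries lay above all *Cnr1*+/+ libraries, as for 8.85% of all genes tested. Of the 31 related genes tested, 3 had separate groups. The log2 fold change was 0.43 (SE 0.15) for *Arhgdia*, with limma adjusted p = 0.690, and 0.40 (SE 0.16) for *Arhgdib*, with limma adjusted p = 0.792. *Arhgdia* did not keep its nominal call without *Cnr1*-/- replicate 3 (log2 fold change 0.37; limma, adjusted p = 0.989). *Arhgdib* lost its call without *Cnr1*+/+ replicate 1 (log2 fold change 0.31; limma, adjusted p = 0.857) and without *Cnr1*-/- replicate 2 (log2 fold change 0.28; limma, adjusted p = 0.999), the library with the high neutrophil and erythrocyte markers, whose part in this value was not tested. The exchange factors that load Rac with GTP did not share the call, with log2 fold changes of 0.03 for *Vav1* and 0.12 for *Prex1*, so 2 of the 6 tested exchange factors and inhibitors were called, beside 5.09% of all genes in that direction.

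*Prkcb* encodes protein kinase C beta, one of the kinases that phosphorylate p47phox, and was the third gene called. It stood at 50.2, 60.9 and 58.4 cpm in the *Cnr1*+/+ libraries and at 83.1, 81.0 and 66.7 cpm in the *Cnr1*-/- libraries. The groups were separate, as for 8.85% of all genes tested with *Cnr1*-/- higher, and the highest value was not in *Cnr1*-/- replicate 2. The log2 fold change was 0.44 (SE 0.15, 95% interval 0.14 to 0.74), with limma adjusted p = 0.622 and a two-sided exact permutation p of 0.1. Its nominal call was kept in 14 of 14 alternatives with log2 fold changes of 0.34 to 0.54, and without *Cnr1*-/- replicate 2 the log2 fold change was 0.40. *Prkcb* was the only one of 14 kinases and lipases called, a share of 7.14% beside 6.02% of all genes. The most abundant of that list, *Prkcd* and *Pik3cd*, each had a log2 fold change of 0.11.

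For the Rap GTPases, which copurify with the membrane core, 0 of 2 were called, with log2 fold changes of 0.01 for *Rap1b* and 0.36 for *Rap1a* (95% interval −0.01 to 0.73; limma, adjusted p = 0.825). *Rap1a* passed the nominal threshold with no filter on low values, with the replicate block, without *Cnr1*+/+ replicate 3 and without *Cnr1*-/- replicate 2. Of the transcription factors that act on oxidase promoters, 0 of 4 tested genes were called. *Irf8* and *Spi1*, which encodes PU.1, are factors whose motif letters were searched above. *Irf8* stood at 378, 408 and 397 cpm in the *Cnr1*+/+ libraries and at 408, 437 and 470.4 cpm in the *Cnr1*-/- libraries, a log2 fold change of 0.15 (95% interval −0.08 to 0.38; limma, adjusted p = 0.900). *Spi1* stood at 107, 91.2 and 98.3 cpm and at 106, 122 and 116 cpm, a log2 fold change of 0.21 (95% interval −0.05 to 0.48; limma, adjusted p = 0.857). The groups overlapped for both genes.

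**Figure D4:**
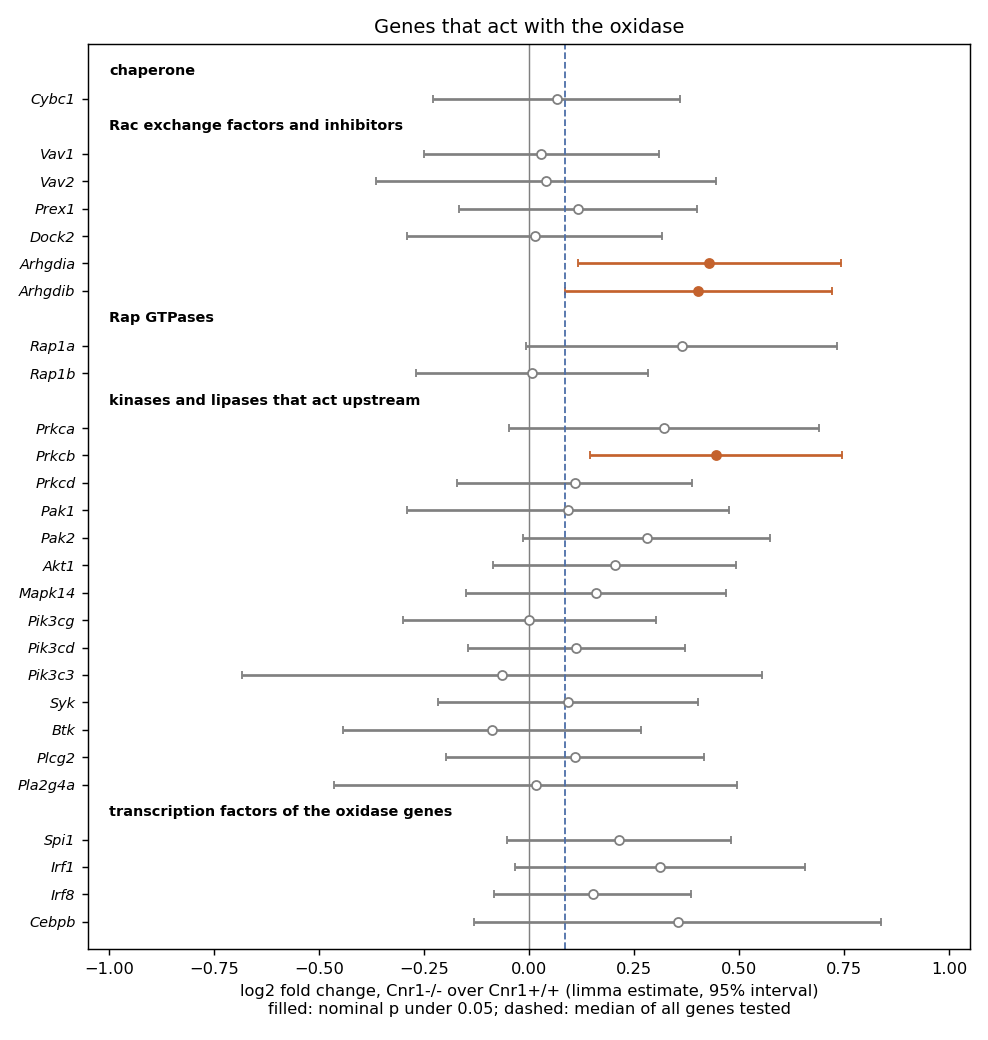
Log2 fold change, *Cnr1*-/- over *Cnr1*+/+ (limma estimate with its 95% interval), for the 27 related genes shown of the 31 tested, grouped by role; filled orange points have a nominal p under 0.05 and the dashed line is the median of all genes tested, 0.08. *Arhgdia* (0.43), *Arhgdib* (0.40) and *Prkcb* (0.44) are the called genes, and no related gene was called lower.

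The genes whose pattern over the 6 libraries was most like the mean of the members, each centred on its own mean, were *Ptpn12* (Pearson r = 0.991), *Pld1* (r = 0.986) and *Becn1* (r = 0.984). *Ptpn12* encodes a tyrosine phosphatase, *Pld1* a phospholipase D and *Becn1* a component of the autophagy lipid kinase complex. All 3 had their highest value in *Cnr1*-/- replicate 2, at 21.9, 57.6 and 33.4 cpm, and their lowest in *Cnr1*+/+ replicate 1, at 12.1, 45.4 and 27.5 cpm. Of the 6652 genes outside the members, 161 (2.42%) had r of at least 0.9 with this mean. The points are 6 libraries that share scaling and depth, so the values are descriptions. Among the members themselves *Ncf4* (r = 0.917), *Cybb* (r = 0.916) and *Rac2* (r = 0.844) followed the mean most closely and *Hvcn1* least (r = 0.126), although each of them is part of that mean.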

How the data were processed

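RNA of CD11b+ cells from 6 brains, 3 per genotype label, had been sequenced with a 3′ mRNA kit as 50-base single reads. The authors trimmed the reads, aligned them to mm10 with STAR, quantified genes by expectation-maximisation in Partek against Ensembl release 99 and applied TMM normalisation. The deposited values are CPM (written cpm), reads per gene scaled to a common library total. The listed genes held 50.1% to 59.1% of each scaled total. Reads shared between similar genes were divided, which makes the levels of genes with near-identical copies uncertain. Because 86.7% to 88.5% of a library's values were whole multiples of 1 read (tolerance 0.1 read), no test for counts was used. All 42 member values were whole, from 114 to 3387 reads, with counting errors of 1.72% to 9.37%. No value column was left unmapped (0 columns).

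The value columns are headed 1 to 6 with no genotype and were matched to samples by the number in each sample's description, and genotypes were taken from the labels. Values were tested as log2 (cpm + 0.1) for genes that averaged 10 or more, using limma 3.58.1 in R 4.3.3 (lmFit, eBayes with trend). The model held genotype alone, and p-values were adjusted by Benjamini-Hochberg over all genes tested. Member ratios were compared by two-sided exact permutation tests. Calls used the study's limits, 0.05 for the nominal p, or 0.1 for the adjusted p beside a 1.5-fold change. The members and gene lists were chosen with earlier results of these data known. The genes named are the members, related genes with a nominal p under 0.05 or among the most abundant of each list, and the 3 genes most like the members' mean. Coordinates are those of the deposited table on mm10, and all member positions matched GENCODE vM21. Promoter windows came from RefSeq. Some genes of the related and marker lists enter the counts and sums but are not reported here.

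Alternatives were a pseudocount of 1, no filter, a minimum mean of 20, centring on the library median, quantile normalisation, rescaling without mitochondrially encoded genes, eBayes without trend, a replicate block, and fits that omitted 1 library each. The limma step was tested on simulated data. Python 3.11.15 with matplotlib 3.10.9 drew the figures.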

Additional observations from a re-analysis of the deposited data

How the results depend on the processing

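Of the 14 alternatives, each left *Ncf1* nominally higher in the libraries labelled *Cnr1*-/-, and none gave any member an adjusted p under 0.1. The count of members called, 1 with all libraries, was 1 to 3 with a library left out, and reached 3 without *Cnr1*-/- replicate 1, when *Cybb* and *Rac2* were added. The count of related genes called, 3 with all libraries, was 2 to 6 with a library left out, the highest without *Cnr1*+/+ replicate 3, and 5 with the replicate block. Same-numbered libraries did not deviate together (r = −0.06, −0.03 and −0.03), so no pairing by number was seen. This check cannot show whether mice shared a litter or a day of preparation. Under the replicate block 1 member and 421 of all genes were called. Over the table, 401 genes were called at a nominal p under 0.05. Without a filter there were 993 and with a minimum mean of 20 there were 263, because more and fewer genes were tested, and with a library left out 251 to 600, the lowest without *Cnr1*-/- replicate 2. With a library left out the log2 fold change of *Cybb* lay between −0.020 and 0.64, negative only without *Cnr1*-/- replicate 2. That of *Cyba* was −0.016 under quantile normalisation, −0.0066 when scaled without mitochondrial transcripts and −0.0024 to 0.26 with a library left out, negative only without *Cnr1*+/+ replicate 2. *Arhgdia* lost its nominal call without *Cnr1*-/- replicate 3 (0.37), and *Arhgdib* without *Cnr1*+/+ replicate 1 (0.31) and without *Cnr1*-/- replicate 2 (0.28). The log2 fold change of *Rac1* was 0.0019 under quantile normalisation and −0.026 to 0.18 with a library left out, negative only without *Cnr1*+/+ replicate 1. That of *Hvcn1* was 0.012 when scaled without mitochondrial transcripts and as low as 0.0053 without *Cnr1*+/+ replicate 3, and that of *Ncf4* was 0.18 without *Cnr1*+/+ replicate 1. With a library left out, the log2 difference of the ratio between genotypes ranged from −0.54 to 0.046 for *Cyba* to *Cybb* (−0.30 with all), from −0.26 to 0.14 for *Ncf4* to *Ncf1* (−0.01 with all) and from −0.039 to 0.34 for *Rac2* to *Rac1* (0.16 with all). *Cyba* to *Cybb* and *Rac2* to *Rac1* changed sign only without *Cnr1*-/- replicate 2, and *Ncf4* to *Ncf1* without *Cnr1*+/+ replicate 2 (0.14), *Cnr1*+/+ replicate 3 (0.07) or *Cnr1*-/- replicate 1 (0.08). The log2 ratio of the members' summed level, 0.23, was 0.13 after rescaling without mitochondrially encoded genes and 0.17 to 0.28 with a library left out. Apart from the filter, the cause of these changes was not tested. With 3 libraries per genotype the 95% intervals of the member fold changes stay wide. The limma p-values set each difference against the spread between single mice of each label, with an error variance moderated over all genes tested.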
